A study of Mus musculus with 15 samples.

Results

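H19, Igf2, Dlk1, Meg3, Rian, Peg3, Mest, Plagl1, Cdkn1c and Grb10 were chosen by name, as imprinted genes that regulate growth and are largely silent in the adult liver. The array carried probes for 9 of these 10 genes, 23 probes of the 55681 on it, and these 9 are described among 22032 gene symbols in all. No probe carried the name Rian, so Rian was not analysed here. The only large difference among the 9 belonged to H19, which no array of the control livers detected above background and every array of the livers exposed to diethylnitrosamine (DEN), a liver carcinogen, did. In one of those livers the H19 signal stood beside transcripts of skeletal muscle.

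An imprinted gene is transcribed mainly from the copy inherited from a given parent, and the other copy is largely silent. Igf2, Dlk1, Peg3, Mest and Plagl1 are expressed from the paternal copy, whereas H19, Meg3, Rian, Cdkn1c and, in most tissues, Grb10 are expressed from the maternal one. Many of these genes are active in the fetal liver and are shut down after birth, and H19 and Igf2 are well known for returning in liver tumours, as is the fetal plasma protein gene Afp.

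RNA of whole liver from male CD1 mice was hybridised to single-colour arrays. Group C (4 arrays) was given saline and an empty plasmid. Group T (5 arrays) was given DEN with that same empty plasmid. Group G (6 arrays) was given DEN with a plasmid in which the strong CAG promoter drives Gas1, a growth arrest gene. The plasmid (50 μg) was given to all 3 groups by hydrodynamic injection (HGD), which brings it into only a part of the liver cells. According to the methods, DEN or saline was injected on day 15 after birth, the weekly HGD fell between weeks 28 and 34, and the mice were 35 weeks old when killed, whereas the sample records state 10 weeks. Arrays 3 and 4 of C carried 1 RNA code, as did arrays 4 and 5 of T. The SD of the log2 differences over 7733 symbols within these pairs was 0.145 and 0.143, against at least 0.211 for the other pairs within a group, and each pair was averaged. This left 3 mice of C (C1 to C3), 4 of T (T1 to T4) and 6 of G (G1 to G6). In whole liver, fewer cells of a type and less RNA per cell cannot be told apart.

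The arrays had between 15707 and 29765 of 59305 spots well above background, with medians of 19820.5 in C, 20991 in T and 25491 in G, and both slides held all 3 groups. Gas1 itself did not separate the groups, with levels of 6.31 to 6.67 in C, 6.41 to 6.61 in T and 6.49 to 6.79 in G, with a difference of G from T of 0.08 (limma adjusted p = 0.765), so these arrays do not show the plasmid and the groups are used as labelled. The defining hepatocyte markers were all detected (12 of 12).

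One liver stood apart. In G6, 106 symbols lay more than 1 log2 unit above every other mouse, against at most 48 in any other, and 11 of these 106 were among 15 skeletal muscle markers. Tnnc2, a troponin of fast muscle, reached 14.70 in G6 and at most 7.92 elsewhere, and Acta1, the actin of skeletal muscle, reached 13.46 against at most 7.48 in the other mice with a value. Both second values were those of G4. The log2 summed level of the 13 markers measured in every mouse was 9.77 to 9.79 in C, 9.72 to 9.89 in T, 9.72 to 10.13 in the other G livers and 15.72 in G6. Mylpf and Myog, on the same list, were detected on no array. This list was written after such levels had been seen. H19 values that include G6 are therefore given with and without it, as are those of other genes where leaving G6 out changed a call or moved the difference by over 1.5 times.

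**Figure D1:**
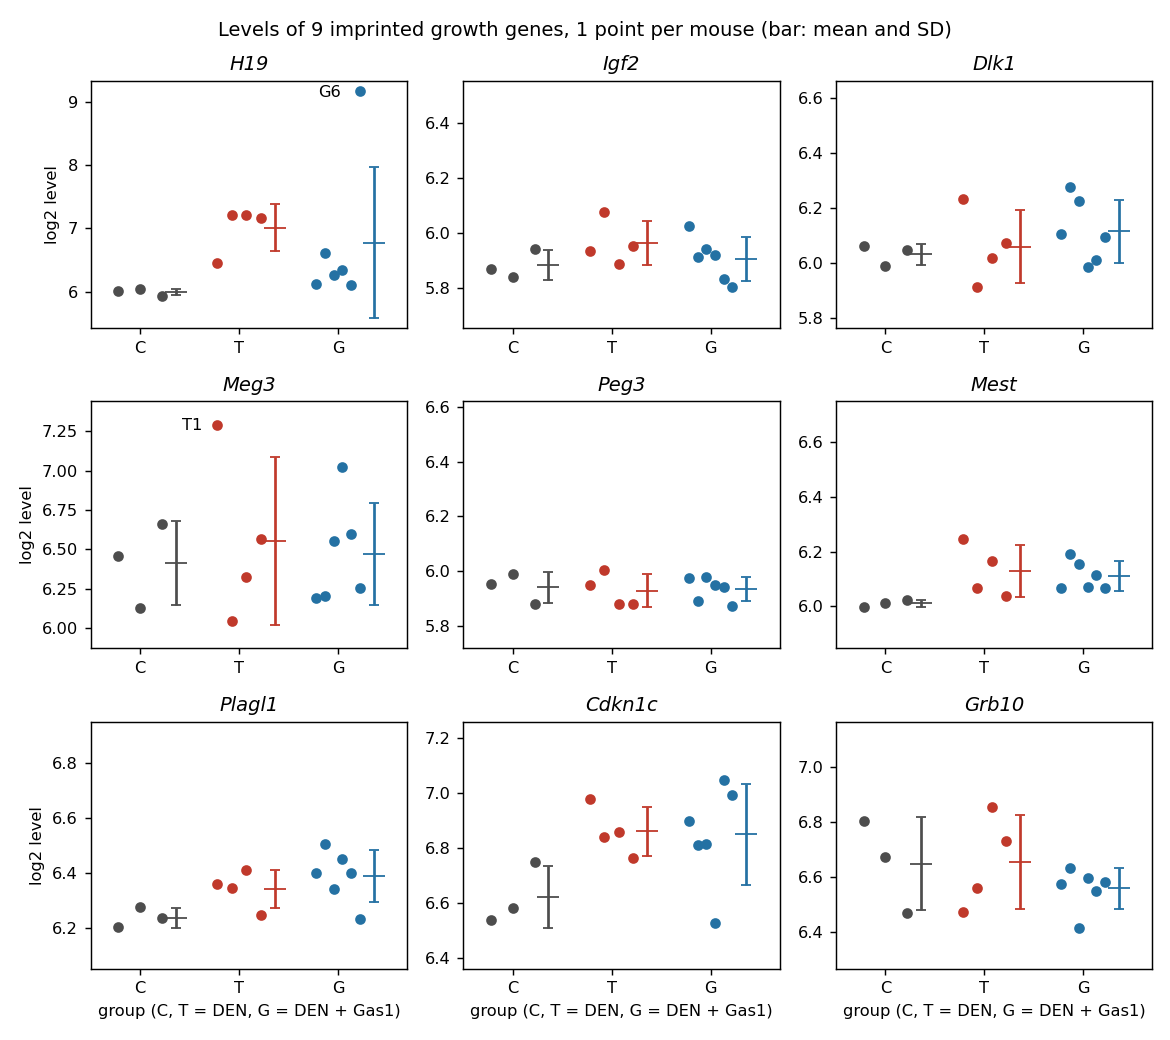
Level of each of the 9 genes (log2, vertical axes with a range of their own) in each mouse of C, T and G; each point is 1 mouse, and the bar beside the points is the group mean with its SD. H19 in G6 reached 9.18, whereas the 3 C mice lay between 5.94 and 6.04.

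H19 is a long non-coding RNA that is abundant in the fetal liver and also in skeletal muscle. In mm9 the files place it on chromosome 7, minus strand, from 149761435 to 149764019, and 6 probes of 60 bases covered its 3′ part. Their sequences are shown because the H19 result rests on them and their differences were unequal. Each is named by its distance in bases from the 3′ end. They are printed 5′ to 3′ in the sense of the transcript, all in lower case as no part of them is singled out.
H19 probe at 57 bases (chr7:149761492-149761551): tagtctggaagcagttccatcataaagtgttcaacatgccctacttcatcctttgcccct
H19 probe at 258 bases (chr7:149761693-149761752): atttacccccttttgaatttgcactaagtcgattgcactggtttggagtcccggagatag
H19 probe at 321 bases (chr7:149761756-149761815): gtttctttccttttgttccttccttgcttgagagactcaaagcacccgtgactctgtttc
H19 probe at 522 bases (chr7:149761957-149762016): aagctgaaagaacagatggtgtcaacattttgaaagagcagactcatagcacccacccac
H19 probe at 678 bases (chr7:149762113-149762172): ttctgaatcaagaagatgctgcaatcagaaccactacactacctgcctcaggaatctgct
H19 probe at 738 bases (chr7:149762173-149762232): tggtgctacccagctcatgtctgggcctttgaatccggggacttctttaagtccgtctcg
The base composition of the 6 differed little, with 45.0% of G and C in 5 of them and 55.0% in the probe at 738 bases.

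None of the 6 H19 probes was well above background on any of the 4 C arrays. The probe at 57 bases was so on 5 of 5 T arrays and 5 of 6 G arrays, and the probes at 258 and 321 bases on 5 of 5 T arrays and 4 of 6 G arrays each. Counting any probe, H19 was detected on no C array, on all 5 T arrays and on all 6 G arrays. Of all 22032 symbols, 44 (0.2%) were detected on no C array and on every T array, and 72 (0.327%) on no C array and on at least 5 of the 6 G arrays.

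At the probe nearest the 3′ end the log2 levels were 6.18, 6.03 and 5.95 in C1 to C3. They were 7.39 in T1, 8.89 in T2, 9.0 in T3 and 8.92 in T4. In G they were 6.14, 7.72, 6.70, 7.08 and 6.70 in G1 to G5 and 11.83 in G6. All 4 T mice lay above all C mice, G1 lay within the range of C, and 5 G mice lay above it. Against the weakest signal that still counts as above background on the C arrays, the T mean was at least 4.57-fold higher and the G mean at least 2.53-fold higher, or at least 1.42-fold without G6. By mouse this lower limit was 2.04-fold in T1 and between 5.80-fold and 6.26-fold in T2 to T4. In G2 to G5 it was between 1.26-fold and 2.57-fold, and in G6 it was 44.5-fold.

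Averaged over its 6 probes, the log2 level of H19 was 5.99 ± 0.05 (SD, n = 3) in C, 7.01 ± 0.37 (SD, n = 4) in T and 6.77 ± 1.19 (SD, n = 6) in G. Without G6 the G mean was 6.29 ± 0.21 (SD, n = 5), between 6.11 and 6.61. The level of G5 rests on 5 probes, as 1 of its spots was left out. Every T and G mouse lay above every C mouse, the T mice started at 6.45 (T1), and G2 alone of the first 5 G mice lay within the range of T. Of the 9 genes, 3 had all T mice above all C mice (H19, Mest and Cdkn1c), as had 10.3% of all symbols, 2 (H19 and Mest) had all G mice above C, as had 2.84%, and the same 2 had all DEN-treated mice above C, as had 1.72%. None had all G mice above T, as had 1.1%.

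With all 13 mice in 1 limma fit, none of the 9 genes passed an adjusted p of 0.05 in any of the 4 comparisons, whereas 2.37% of all symbols did so for T against C, 0.132% for G against T, 0.427% for G against C and 1.53% for the mean of T and G against C. At an unadjusted p of 0.05, 1 of 9 passed for T against C (Cdkn1c), beside 20.2% of all symbols. For G against C 2 passed (Cdkn1c and Plagl1), beside 13.3%, and for all DEN livers against C 3 (Cdkn1c, Mest and Plagl1), beside 18.4%. For G against T none of the 9 did, beside 10.8%. The median log2 difference of the 9 genes was 0.10 for T against C and for all DEN livers against C, 0.08 for G against C and -0.02 for G against T.

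The H19 difference was 1.02 ± 0.59 (standard error, limma adjusted p = 0.373) for T against C, 0.78 ± 0.55 (adjusted p = 0.59) for G against C and 0.90 ± 0.51 (adjusted p = 0.379) for all DEN livers against C. The single value of G6 entered the estimate of the spread of all 3. Without G6 the T against C difference was the same 1.02 and its adjusted p was 0.0174, with 3.16% of all symbols called. In a fit of T and C alone it was 0.0437, with 1.63% of all symbols called. For all DEN livers against C without G6 the difference was 0.66 and the adjusted p 0.0472, with 2.59% of all symbols called. For G against C without G6 the difference was 0.30 and the adjusted p 0.448, with 0.717% of all symbols called. In the limma fits H19 therefore passed for T against C once G6 was set aside, and for G against C it did not pass either way. The methods' t-test of T against C, which does not use G6, called no symbol after adjustment, H19 included.

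Exact two-sided permutation tests over mice gave p = 0.0571 for T against C (4 against 3), which is the smallest p that these numbers allow. The exact p was 0.0238 for G against C with 6 mice and 0.0357 with 5, each also the smallest possible. At the probe at 57 bases alone the exact p for G against C was 0.0476 with G6 and 0.0714 without it, where 0.0238 and 0.0357 are the smallest possible. For all DEN livers against C, the exact p of the mean of the 6 probes was 0.00699 with G6 and 0.00909 without it. Both are the smallest possible. At the probe at 57 bases alone it was 0.0140 with G6 and 0.0182 without it. Within slide 1 the T against C difference was 1.17, and within slide 2 it was 0.99.

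G against T gave a log2 difference of -0.24 ± 0.50 (limma adjusted p = 0.907) for H19. Without G6 it was -0.72 (limma adjusted p = 0.103), with 0.0635% of all symbols called, and the exact permutation p was 0.0317. Without G6, 4 of the 5 G mice lay below all T mice, and the whole-table adjustment was not passed. Within slide 1, which held G6, the difference was 0.10, and within slide 2 it was -0.68. H19 was thus below T2 to T4 in 5 of 6 Gas1-treated livers, and the difference between G and T was not called with or without G6.

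The difference of T from C was unequal among the 6 probes. In a fit over 50172 probes without G6, it was 2.50 (adjusted p = 0.0171) at 57 bases, 1.35 (adjusted p = 0.0182) at 258 bases and 1.16 (adjusted p = 0.023) at 321 bases. It was 0.23 (adjusted p = 0.21) at 522 bases, 0.36 (adjusted p = 0.117) at 678 bases and 0.45 (adjusted p = 0.0264) at 738 bases. Thus 4 of the 6 passed, beside 1.97% of all probes. No H19 probe was detected on any C array, and the probes at 522, 678 and 738 bases were so on only 3, 4 and 4 of 5 T arrays. The part of the detection floor in the unequal differences was not tested. They fell from 57 to 522 bases and rose from there to 738 bases, so they followed no single order with distance. With G6 in the fit the differences were the same and none of the 6 passed, beside 1.32% of all probes, the lowest adjusted p being 0.228. The RNA was labelled from an oligo-dT primer, and the part of this in the unequal differences was not tested.

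**Figure D2:**
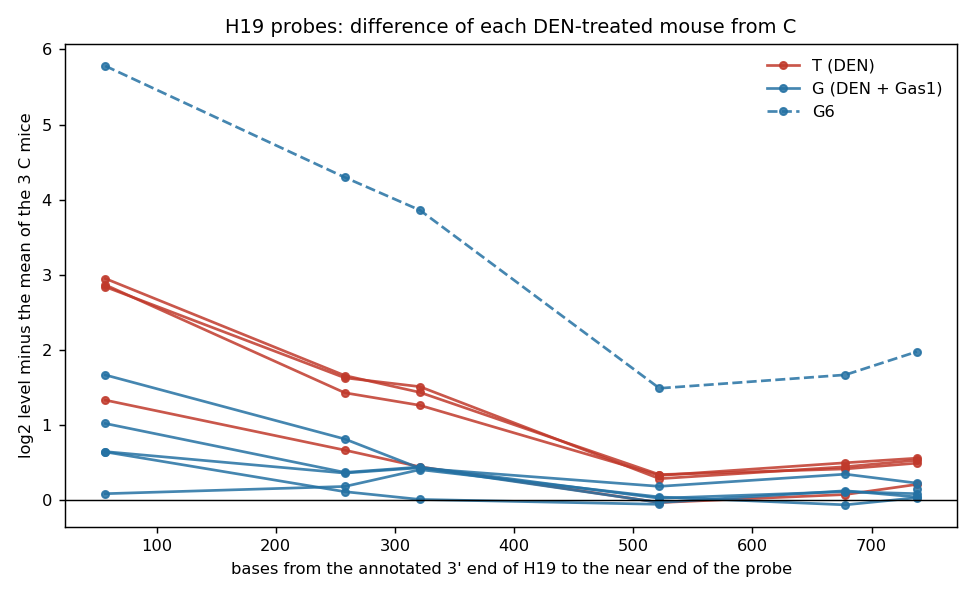
Difference of each T and G mouse from the mean of the 3 C mice (log2, vertical axis) at each H19 probe, placed by its distance in bases from the annotated 3′ end (horizontal axis); each line is 1 mouse. The mean of T lay 2.50 above C at 57 bases, 0.23 at 522 bases and 0.45 at 738 bases; G6 (dashed) lay above all other mice at every probe.

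Across the groups H19 ran with Afp, but not among the livers G1 to G5. Afp, which encodes the fetal counterpart of albumin, was 6.37, 6.05 and 6.04 in C1 to C3. It was 7.41 in T1, 9.16 in T2, 8.98 in T3 and 8.92 in T4. In G it lay between 6.66 (G1) and 8.39 (G6), with a median of 7.32. Across the 12 mice other than G6, the Pearson r of H19 with Afp was 0.95 and the Spearman rho 0.88. With G6 they were 0.69 and 0.87. T1 was the lowest T mouse for both genes and G1 the lowest G mouse for Afp. For Gpc3, a fetal heparan sulfate proteoglycan gene that is used as a tumour marker, r was 0.37 and rho 0.76 with all 13 mice, and r was 0.81 and rho 0.85 without G6. These mice share their groups and their arrays, so the values only describe how the levels ran together.

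**Figure D3:**
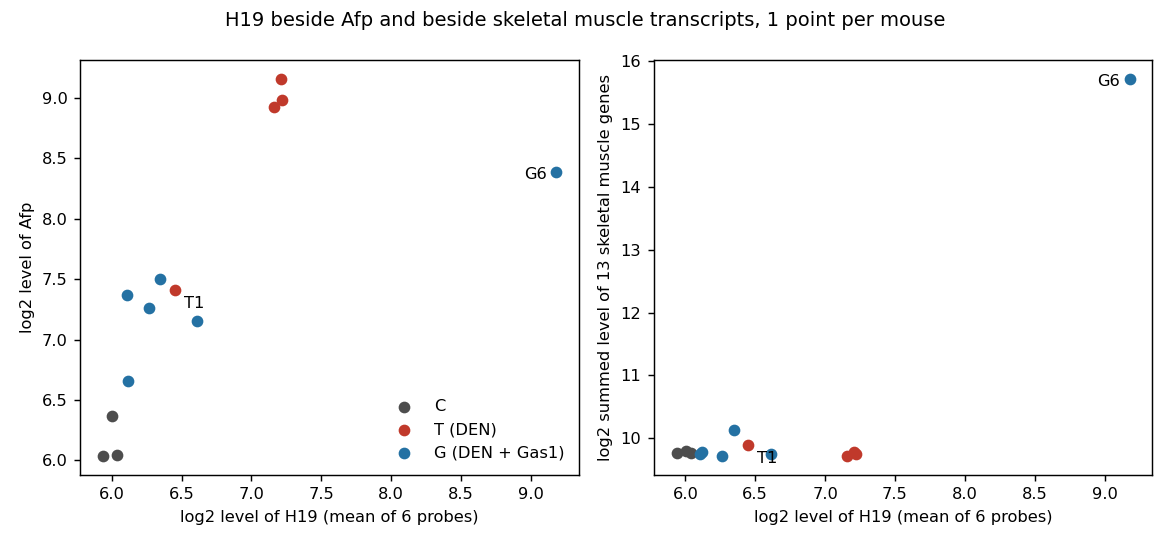
H19 (log2, mean of 6 probes, horizontal axes) against Afp (log2, left) and against the log2 summed level of 13 skeletal muscle genes (right), 1 point per mouse. G6 lies at 9.18 for H19 and at 15.72 for the muscle genes, where the other mice lie between 9.72 and 10.13.

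The H19 value of G6 thus came with a muscle marker sum of 15.72. T2 to T4 had H19 levels of 7.16 to 7.22 with muscle sums of 9.72 to 9.78, beside 9.77 to 9.79 in C. T1, the lowest T mouse for H19, had a muscle sum of 9.89, above every C mouse. The part of muscle RNA in the H19 level of G6, or of any other mouse, was not tested. Among other cell types, the summed level of 8 erythroid and blood markers was 11.95 to 13.31 in C, 13.68 to 14.24 in T and 12.52 to 15.06 in G, the highest being G6. The sum of 11 hepatocyte markers was 19.41 to 19.43 in C, 19.05 to 19.38 in T and 19.15 to 19.37 in G. The blood sum was thus higher and the hepatocyte sum lower in every T mouse than in C, whereas the sums of the stellate cell, endothelial, cholangiocyte, macrophage and exocrine pancreas lists overlapped between C and T. Their part in the H19 levels was not tested.

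The genes most like H19 depended on G6. Over all 13 mice and 12721 candidate symbols they were Adprhl1, Fndc5, which encodes the muscle protein that yields irisin, and Csda, with r of 0.96, 0.95 and 0.94. Without G6 their r was 0.88, 0.81 and 0.79, and the highest were Akr1c18 (0.97), Gldn (0.96) and Tceal5 (0.95).

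Igf2, the fetal growth factor next to H19 that shares its enhancers, had 1 probe, which no array detected. Its levels were 5.84 to 5.94 in C, 5.89 to 6.08 in T and 5.80 to 6.02 in G, so the groups overlapped at the floor of the array. Peg3, a zinc finger protein gene, had 2 probes, neither detected on any array, with levels of 5.88 to 5.99 in C, 5.88 to 6.01 in T and 5.87 to 5.98 in G. Of all symbols, 29.3% were detected on no array. The log2 differences of both enter the counts and medians over the 9 genes, but they describe background signal (0.08 for Igf2 and -0.01 for Peg3, T against C), and no lower limit of a fold was set. Across the 13 mice H19 and Igf2 had a Pearson r of -0.20 (permutation p = 0.519) and a Spearman rho of 0.03 (permutation p = 0.936), with Igf2 at background throughout. Without T3 and G6, the 2 mice farthest from the median of H19, r was 0.57, so the sign of this relation rested on those mice. It was -0.28 in the 7 mice with an array on slide 1, 0.02 in the 8 on slide 2 and -0.64 in the 6 G mice.

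Dlk1, Meg3 and Rian lie in one imprinted domain on chromosome 12. Dlk1 encodes a membrane protein of the Notch ligand family that marks fetal hepatoblasts. It was at the edge of detection, well above background on 4 of 15 arrays. Its levels were 6.06, 5.99 and 6.05 in C, 6.23, 5.91, 6.02 and 6.07 in T and 5.99 to 6.27 in G, so the groups overlapped. The difference of T from C was 0.03 ± 0.08 (standard error, limma adjusted p = 0.899), and that of G from T was 0.06 ± 0.07 (adjusted p = 0.822). This T against C value averages probes that went opposite ways, by -0.14 ± 0.06 (limma adjusted p = 0.241) and 0.19 ± 0.12 (adjusted p = 0.462).

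Meg3, a maternally expressed non-coding RNA, varied widely within each group. Probes 2 and 3 of its 3 probes are shown because they behaved differently.
Meg3 probe 2 (chr12:110799558-110799617): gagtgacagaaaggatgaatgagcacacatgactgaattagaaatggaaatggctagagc
Meg3 probe 3 (chr12:110809678-110809737): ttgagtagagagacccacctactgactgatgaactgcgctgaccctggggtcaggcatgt
Both lie on the plus strand of mm9, and probe 3 is the one nearest the 3′ end. Probe 3 was well above background on 11 of 15 arrays and probe 2 on 6, of which 3 were of C, 0 of T and 3 of G.

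At probe 3 the levels were 6.37, 6.14 and 7.39 in C1 to C3 and 9.05, 6.23, 6.80 and 7.65 in T1 to T4. In G1 to G6 they were 6.38, 6.44, 7.52, 8.12, 7.43 and 6.25. Each group thus held low and high livers, and the highest was T1. Arrays of 1 RNA code read 7.33 and 7.46 (C) and 7.63 and 7.66 (T). Between groups, the difference of T from C at this probe was 0.80 ± 0.62 (standard error, limma adjusted p = 0.546) and that of G from T was -0.41 ± 0.52 (adjusted p = 0.862). The other probes went the opposite way for T against C, with -0.24 ± 0.12 (limma adjusted p = 0.331) at probe 2. At probe 1 it was -0.13 ± 0.15 (limma adjusted p = 0.702). For the mean of the 3 probes, the T against C difference was 0.14 ± 0.27 (adjusted p = 0.827) and the G against C difference 0.06 ± 0.25 (adjusted p = 0.953).

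Between Meg3 and Mirg, the far end of the same domain, 45 probes read the plus strand, the strand of Meg3, and 26 of them were detected on no array. Of the 11 detected on at least 3 arrays, 10 had a value in every mouse, and their Pearson r with Meg3 probe 3 across the 13 mice ranged from -0.31 to 0.95 with a median of 0.22. The 4 with r above 0.5 start on chromosome 12 at 110865304, 110896272, 110897958 and 110979653, and their r was 0.91, 0.95, 0.90 and 0.88. Without T1 their r was 0.84, 0.91, 0.80 and 0.79. T1 was the highest mouse at 5 of the 10 probes. These 4 were picked by their r, carry no gene symbol and were given no test. Dlk1, upstream in the same domain, had r = 0.26 with Meg3 (permutation p = 0.399, 13 mice) and rho = 0.12 (permutation p = 0.696). As Dlk1 was well above background on only 4 of 15 arrays, these values cannot tell whether it ran with Meg3. The adjusted p over the 2 pairs that could be run was 0.519 for r. For this pair r was 0.15 without T1 and G2, 0.25 on slide 1, 0.19 on slide 2 and -0.60 within G.

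**Figure D4:**
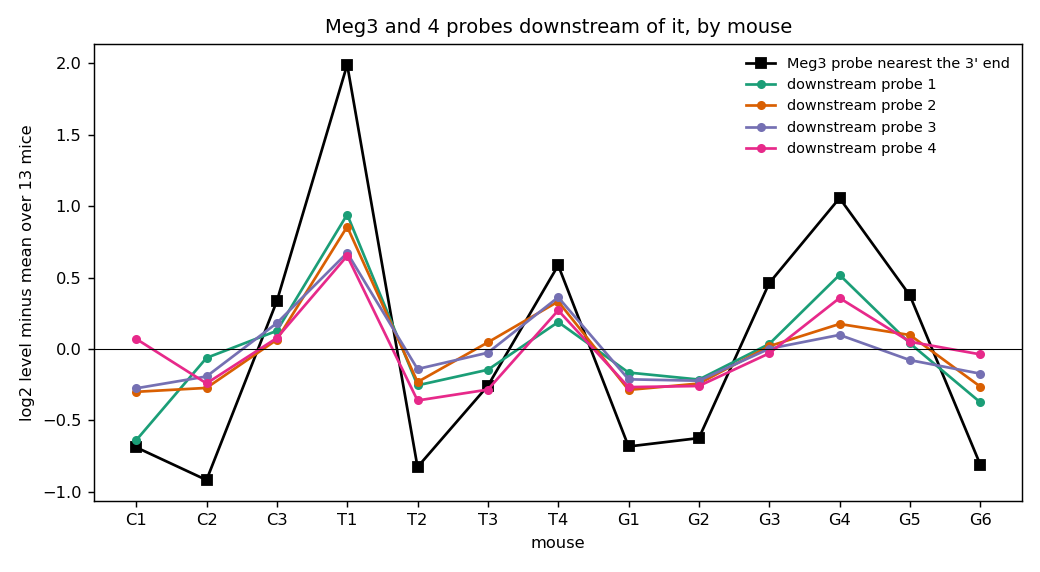
Level of Meg3 probe 3 (black squares) and of the 4 downstream probes with r above 0.5 (coloured, numbered by position) in each mouse, each as the log2 difference from its own mean over the 13 mice. T1 is the highest mouse on all 5 lines, and each group holds mice above and below 0.

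Cdkn1c, the cyclin-dependent kinase inhibitor p57 and a brake on fetal growth, was well above background on 14 of 15 arrays. Its levels were 6.54, 6.58 and 6.75 in C, 6.98, 6.84, 6.86 and 6.76 in T and 6.90, 6.81, 6.81, 6.53, 7.05 and 6.99 in G1 to G6. All T mice lay just above all C mice, as did 5 of the 6 G mice, while G4 lay below C1. The difference was 0.24 ± 0.11 (standard error, limma adjusted p = 0.233) for T against C and 0.23 ± 0.10 (adjusted p = 0.343) for G against C. That of G from T was -0.01 ± 0.09 (adjusted p = 0.981).

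Plagl1, a zinc finger transcription factor that acts on other imprinted genes, was detected on 12 of 15 arrays. Its levels were 6.20 to 6.28 in C, 6.25 to 6.41 in T and 6.23 to 6.51 in G, and the groups overlapped. The difference was 0.10 ± 0.06 (standard error, limma adjusted p = 0.407) for T against C and 0.15 ± 0.06 (adjusted p = 0.292) for G against C. A pair of its 4 probes share a run of 26 bases, so they do not measure it independently.

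Mest, which encodes a hydrolase of mesoderm and fetal tissue, was not detected on any C array and was detected on 2 T and 2 G arrays. Its levels were 6.0 to 6.02 in C, 6.04 to 6.25 in T and 6.07 to 6.19 in G, so every DEN-treated mouse lay above C by a very small step. The difference of all DEN livers from C was 0.11 ± 0.05 (standard error, limma adjusted p = 0.26). Grb10, an adaptor that dampens insulin and IGF receptor signalling, was detected on 14 arrays. It lay at 6.47 to 6.80 in C, 6.47 to 6.85 in T and 6.41 to 6.63 in G, and its difference was 0.01 ± 0.10 (adjusted p = 0.985) for T against C and -0.10 ± 0.08 (adjusted p = 0.723) for G against T. By their Pearson r over the 13 mice, the symbols most like Cdkn1c were Gm8556 (0.91), Use1 (0.86) and Gm1673 (0.83), and those most like Plagl1 were Flcn (0.88), Bmf (0.88) and 2410089E03Rik (0.86). For Mest they were Whamm (0.90), Oas2 (0.88) and Mylip (0.87), for Grb10 Itgb3bp (0.85), Polr2f (0.84) and Cd7 (0.81), for Meg3 Zfp326 (0.90), Gm13298 (0.87) and Tmem25 (0.86), and for Dlk1 Odz4 (0.86), Zfp511 (0.83) and Gkn3 (0.80). With 12721 candidates each, such values describe the ranking only.

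**Figure D5:**
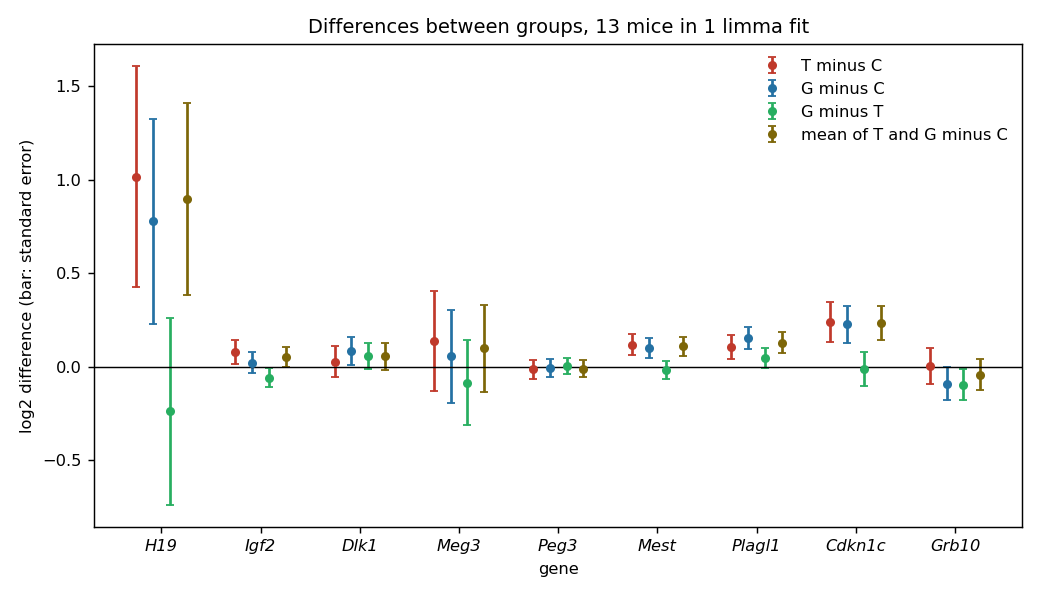
Log2 differences between groups (vertical axis) for each of the 9 genes, from 1 limma fit of the 13 mice; bars are standard errors. The H19 difference of T from C was 1.02 with a standard error of 0.59 that includes the spread set by G6, and the differences of the other genes from C lay between -0.09 and 0.24.

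Among 62 other imprinted genes, 59 were on the array and 45 were detected on at least 1 array. None rose for T against C, beside 1.18% of all symbols, and 1 fell, beside 1.2%, the median log2 difference being 0.00 beside 0.01 over all symbols, and none passed for G against T or G against C. The gene that fell was Tfpi2, an inhibitor of serine proteases, which was 7.94, 8.19 and 7.83 in C and 7.19 to 7.46 in T. Its difference was -0.67 ± 0.12 (standard error, limma adjusted p = 0.0184). It passed neither without C1 (adjusted p = 0.0517) nor without C2 (0.0667) or T3 (0.0579), and under median scaling it was -0.01. The largest differences that did not pass were those of Gab1 at 1.35 (adjusted p = 0.556) and Dcn, the matrix proteoglycan decorin, at -0.82 (adjusted p = 0.0947). Gab1 was 12.21 in T3 and at most 6.23 in the other T mice, and without T3 its difference was -0.16 (adjusted p = 0.523). Dcn, with a value in 11 of 13 mice, passed without T1 (-1.02, adjusted p = 0.0271). For all DEN livers against C, Tfpi2 fell by 0.58 (adjusted p = 0.0236), the only gene of the list to pass, beside 0.917% of all symbols that fell. For G against T, Gab1 differed by -1.47 (adjusted p = 0.62), or 0.05 without T3, and Dcn by 0.63 (adjusted p = 0.337). For G against C, Tfpi2 differed by -0.49 (adjusted p = 0.0782; 0.047 without G6) and Gatm, an enzyme of creatine synthesis, by 0.40 (adjusted p = 0.185), or 0.25 without C1.

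Among 23 genes of the IGF system none passed in any comparison, with 20 of them detected. The median difference of T from C was 0.02. Igf1r, the receptor through which IGF2 signals growth, came closest. It was detected on 6 of 15 arrays and on no C array, so its C levels lay at the floor. Levels were 6.02 to 6.11 in C and 6.29 to 6.50 in T. All T mice lay above C, as for 10.3% of all symbols. The difference was 0.29 ± 0.07 (standard error, limma adjusted p = 0.0548). Without G3 the adjusted p was 0.0341, and without G6 it was 0.0479. Igfbp2, an IGF binding protein made by the liver, differed by 0.45 ± 0.54 (adjusted p = 0.703), with 0.24 without C2, 0.28 without T1 and 0.84 without T2. For G against T, Igfbp6 differed by 0.60 ± 0.31 (adjusted p = 0.523), or 0.37 (adjusted p = 0.644) without G6, which had the highest level at 8.86. In the same comparison Igfbp1, with a value in 12 mice, differed by -0.57 ± 0.46 (adjusted p = 0.709), with -0.86 without G1 and -0.33 without G4.

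Of 22 genes that keep or read imprints, such as DNA methyltransferases, KRAB zinc finger proteins and cohesin subunits, none passed, with 21 detected. Those with the largest differences of T from C were Zfp445, a zinc finger protein that protects imprints, at 0.32 ± 0.22 (adjusted p = 0.459), and Rad21, a cohesin subunit, at 0.22 ± 0.09 (adjusted p = 0.178). For G against C, Zfp445 differed by 0.48 ± 0.20 (adjusted p = 0.329) and Dnmt3b, a de novo DNA methyltransferase, by -0.29 ± 0.14 (adjusted p = 0.378), or -0.45 without C2.

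Of 16 fetal liver genes and their postnatal repressors, 2 rose for T against C, beside 1.18% of all symbols, and none fell, beside 1.2%, with a median of 0.03. Afp rose by 2.47 ± 0.41 (standard error, limma adjusted p = 0.0159), and Gpc3 by 0.49 ± 0.12 (adjusted p = 0.0493). Afp did not pass without C2 (adjusted p = 0.058) or T3 (0.0517), and Gpc3 did not without any one of C1 to C3, T2, T3 or G1 to G6. For all DEN livers against C, Afp rose by 1.85 ± 0.36 (adjusted p = 0.0311), the only gene of this list to pass, beside 0.613% of all symbols that rose. Leaving out any one of C1, C2, C3, T3 or T4 ended that call, with adjusted p between 0.0573 and 0.104. For G against C none passed, Afp differing by 1.24 ± 0.38 (adjusted p = 0.183), and for G against T Afp differed by -1.23 ± 0.35 (adjusted p = 0.194), and by -1.63 (adjusted p = 0.0292) without T1. Zbtb20, the repressor that silences Afp after birth, differed by 0.36 ± 0.11 for T against C (adjusted p = 0.103), and Lin28a, an RNA-binding protein of fetal cells, by -0.40 ± 0.16 (adjusted p = 0.195). These lists were put together with earlier results of these data known, so their counts are a description.

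In the cell type lists, the hepatocyte gene Ttr fell by 1.00 on the log2 scale for T against C (limma adjusted p = 0.00424), but under median scaling its difference was 0.18. The stellate cell gene Ngfr fell by 0.69 (adjusted p = 0.0447) and the macrophage gene Emr1 rose by 0.31 (adjusted p = 0.0267). Ngfr passed in 14 of 32 alternatives, with differences from -1.08 to -0.11, and Emr1 in 21 of 32, the within-slide values being untested. Each was the only gene of its list to pass, beside 1.2% of all symbols that fell and 1.18% that rose. The medians were -0.16 for the 14 stellate cell markers and 0.20 for the 8 macrophage markers. Pck1, a hepatocyte gene of gluconeogenesis, rose by 1.59 for all DEN livers against C (adjusted p = 0.05, just under the threshold), and the median of the 12 hepatocyte markers was 0.05 for T against C. Pck1 passed in 11 of 31 alternatives. No gene of the endothelial, cholangiocyte, erythroid, exocrine pancreas or skeletal muscle lists passed in any comparison.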

How the data were processed

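The authors extracted each array with Agilent Feature Extraction 10.7.3.1 and deposited the intensity of every spot and its background. Their table of processed values, deposited for the series, holds log2 values after normexp and quantile normalization and was used as an alternative. Here normexp (offset 50, all spots), log2 and quantile normalization over 59305 non-control spots were repeated, and 3671 control spots and outlier-flagged spots were left out. For these genes the values differed from the deposited log2 values by at most 0.00702. Probes of a symbol were centred and averaged, arrays of 1 RNA code were averaged, and 3 C, 4 T and 6 G mice were compared with limma 3.58.1 (R 4.3.3, data.table version 1.17.8; lmFit, eBayes), with Benjamini-Hochberg adjustment over 22032 symbols and a threshold of 0.05. A log2 level is relative to the array, and the number of mice limits the precision. No label says that arrays of other RNA codes came from separate animals, so p-values measure the spread between these samples.

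A probe counts as detected where at least 0.5 of its spots carry the scanner software's flag for being well above background. A lower limit of a fold divides the mean of the bright group by, per array, the higher of the probe's own signal and the weakest signal so flagged. Correlations and exact tests used SciPy 1.17.1 (NumPy 2.4.6, Python 3.11.15), with 100000 resamples for correlations, and plots matplotlib 3.10.9. The fit was first tested on simulated data. Positions are those of the files (mm9), and all 9 symbols are current RefSeq symbols.

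The members and the gene lists were chosen with earlier results of these data known. Named genes were all members and, in each list other than the cell type lists, every gene passing the threshold (at most 6) and the 2 largest differences that did not. For members detected on at least 3 arrays, the 3 symbols with the highest r were named too. Alternatives covered the test, normalization, probe summary, slide, replicate number and each mouse left out in turn. The skeletal muscle list, the fit over probes, the values of listed genes without each mouse and the search for probes like Meg3 were added after values had been seen. Rian pairs could not be run. The sequence of 1 probe is not reported here.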

Additional observations from a re-analysis of the deposited data

Results flagged for a closer look

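The level of H19 was tested for a mouse far from the rest of its group, as were those of the 8 other genes in T and in G, 18 groups in all, of which chance marks about 1 in 20. In 2 of them 1 mouse lay farther out than Dixon's limit. H19 in G6 lay at 9.18, and its gap to the next G mouse was 0.835 of the whole range of G (limit 0.625 for 6 mice). This is the liver with a log2 muscle marker sum of 15.72. H19 in T1 lay at 6.45, below the other T mice, and its gap was 0.924 of the range of T (limit 0.829 for 4 mice). Afp was lowest of T in the same liver, at 7.41, and Meg3 highest, at 7.29.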

How the results depend on the processing

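The direction of the H19 difference from C held under all alternatives that gave a value, with a range of 0.84 to 2.78 for T against C, 0.30 to 1.66 for G against C and 0.65 to 2.22 for all DEN livers against C. The number of genes of the 9 that passed was 0 under most settings. It was 1, H19, for T against C without G6 (limma adjusted p = 0.0174) and in the fit of T and C alone (difference 1.02, 0.0437), and 1 for all DEN livers against C without G6 (0.0472), so leaving out 1 mouse gave 0 to 1 in both. Leaving out 1 mouse moved the H19 difference between 0.95 and 1.20 for T against C and between 0.66 and 0.99 for all DEN livers against C. Replicate numbers do not pair these mice: only 4 of 13 same-numbered pairs of arrays correlated above 0.1 (range -0.31 to 0.27), and 2 of 15 arrays correlated best with their own number. With the replicate number as a block, 1 of the 9 passed, H19, with 1.06 for T against C, -0.75 for G against T and 0.69 for all DEN livers against C. Number 6 exists in G alone, so this block takes G6 out of the fit. The fit took the 15 arrays as separate samples, so arrays of 1 RNA code were counted apart. Its count over all symbols for T against C was 1606, beside 1949 for 15 separate arrays without the block and 523 as reported. Median scaling moved the median of all symbols by 0.12 for T against C and 0.11 for all DEN livers against C, and the processed signal by -0.40 and -0.35. Under median scaling 1 of the 9 passed for all DEN livers against C (Cdkn1c, 0.45, of which 0.11 is that shift), a setting that called 3968 of all 22032 symbols, 3937 of them higher. The listed genes passing went from 3 to 17 for T against C and from 2 to 23 for all DEN livers against C. Tfpi2 turned to 0.056 for all DEN livers against C and Ttr to 0.32, and to 0.18 for T against C. With 15 separate arrays the listed genes passing were 9, 6 and, for G against C, 1 in place of 0. Leaving out 1 mouse gave 0 to 5 for T against C, 0 to 4 for all DEN livers against C, and 0 to 1 for G against C and for G against T. The H19 and Igf2 r moved from -0.20 to 0.57 without 2 mice. Over all symbols the T against C count was 0 with the methods' t-test after adjustment, at whose unadjusted threshold 2 of the 9 genes, Cdkn1c and H19, passed, 57 with the processed signal, 186 with cyclic loess, 889 with the RNA code as a random block, 800 with slide as a term, 1949 with 15 arrays and 2876 with median scaling. Leaving out 1 mouse gave 95 to 746. Under all alternatives this count ranged from 1 to 268 for G against T (29 as reported), from 0 to 338 for G against C (94) and from 16 to 3968 for all DEN livers against C (337). The fit of only the compared groups could not be had for all DEN livers against C, and within slides no test was made.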
